A study of Mus musculus with 48 samples.

Results

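The response of mouse ovarian tumour ascites macrophages to AP-3-84 was measured by comparing 3 libraries of cells given the compound with 3 libraries of cells given its vehicle. These are 6 of the 48 libraries of the series, chosen by their labels, and all 16955 genes that passed the filter on low counts were tested. AP-3-84 is a code name, and the labels do not describe the compound. The cells were F4/80-positive cells, sorted with magnetic beads from peritoneal washes of C57BL/6 mice. The mice had received cells of the mouse ovarian tumour line ID8 45 days before. The genotype field of these mice reads B6(Cg)-Tyrc-2J/J. Both groups then spent 4 h in culture, one with 10 µM AP-3-84 and the other with as much DMSO. A second peritoneal population, called thio here, came from wild-type C57BL/6 mice 4 days after intraperitoneal thioglycollate, was sorted in the same way and had its own 3 vehicle and 3 AP-3-84 libraries. Its libraries share the filter on low counts and one estimate of the spread with the ascites libraries, so they enter the ascites p-values. Its own response serves below only to show where the ascites response differs. ID8 is 1 tumour line, F4/80 beads enrich macrophages without removing every other cell, and the labels do not say whether replicates came from separate mice. The p-values measure the spread between these libraries, which may be technical.

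Each ascites library held 15558533 to 19417581 counts. A count marks a read at the 3′ end of a transcript, and levels are given as CPM, counts brought to one common library total by TMM scaling. A gene is called at an edgeR quasi-likelihood adjusted p under 0.05 (Benjamini-Hochberg, two-sided, over all genes tested). AP-3-84 replicate 1 stood most apart. It had counts for 20388 genes, against 22237 to 22945 in the other 5 libraries, and it held the highest AP-3-84 value of 141 of the 198 protein-coding genes called higher. Without it, 206 genes were called higher and 27 lower.

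The macrophage label was checked against 12 marker genes, all of which were tested. Their summed level was 32841 to 34767 CPM in the vehicle libraries and 28168 to 32280 CPM with AP-3-84, so the groups did not overlap. Lyz2, the macrophage lysozyme gene, made up most of that sum and stood at 26356, 24554 and 26206 CPM in the vehicle libraries and 19262, 22953 and 24566 CPM with AP-3-84 (edgeR log2 fold change -0.21 ± 0.08 SE, adjusted p 0.311), which is no call. Only Fcgr1, the high-affinity IgG receptor, was called among the 12, and it was lower. Summed markers of other cells were 13.6 to 18.7 against 12.4 to 14.3 CPM for B cells, 4.39 to 7.97 against 3.15 to 6.82 CPM for T and NK cells, and 97.4 to 130.2 against 102.3 to 122 CPM for neutrophils. The B cell sum was mostly Cd22 (median 12.3 CPM) and the neutrophil sum almost wholly S100a8, Mmp8 and Cxcr2. S100a9 and Ly6g of the neutrophil list reached no more than 0.148 and 0.232 CPM. Ovarian epithelial or ID8 tumour cell markers summed to 186 to 215 CPM in vehicle and 212 to 233 CPM with AP-3-84, mesothelial markers to 70.3 to 86.7 against 77.7 to 91.2 CPM, and fibroblast markers to 39.7 to 56.5 against 40.9 to 50.5 CPM. Dendritic cell markers stood at 154 to 178 against 143 to 150 CPM, mostly Itgax (median 125 CPM), and eosinophil or mast cell markers at 5.15 to 6.89 against 5.66 to 6.57 CPM. The erythroid and platelet list, 722 to 790 against 656 to 786 CPM, was almost wholly Pf4, and Hba-a1, Hbb-bs and Hbb-bt were at 0 in all 6 libraries. Ighd of the B cell list, Ncr1, Nkg7 and Gzma of the T and NK cell list, Ngp of the neutrophil list, and Epx, Mcpt4 and Fcer1a of the eosinophil and mast cell list were also at 0. Of the 88 genes of the 9 lists of other cells 43 were tested, the others having too few counts, and 0 of the 43 were called by edgeR or DESeq2 (1 at an unadjusted p under 0.05). The part of other cells in the results was not tested. In bulk samples, fewer cells of a type and less RNA per cell cannot be told apart.

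Cells answer damaged proteins, reactive chemicals and blocked translation with separate programmes. Heat shock factor 1 (HSF1) binds heat shock elements and drives chaperone genes, NRF2 (Nfe2l2) binds antioxidant response elements and drives glutathione and thioredoxin genes, and ATF4 is the factor of the integrated stress response. HSF1 and NRF2 are controlled largely through their proteins. Macrophages in tumour ascites are a major immune cell of ovarian cancer, and in culture macrophages use the same programmes against oxidants of their own making.

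Promoters of 6 called genes from the heat shock, glutathione and integrated stress response lists are shown first, to set the letters of these elements beside the values. Most protein-coding genes that rose were in none of the lists used here. Each promoter shown is a RefSeq window of 300 bases (GRCm38.p6, 250 bases before and 50 from an annotated start), 5′ to 3′ on the gene's strand. There were 32851 windows for 27025 genes, so a gene can have several. Each window printed was taken from those of its gene that hold the motif. That of Atf3 lies inside the gene, which spans 191170296 to 191218039. Capitals mark the motif searched for. In Hspa1a they mark 2 facing units of the heat shock element (GAANNTTC or TTCNNGAA), in Hsph1 the element of 3 alternating GAA and TTC units each 2 bases apart, in Hspe1 2 overlapping copies of that element, in Gclm the antioxidant response element TGACNNNGC, and in Slc7a11 and Atf3 the ATF4 element TGATGNAA, each on either strand.

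Hspa1a, chr17:34972107-34972406, minus strand: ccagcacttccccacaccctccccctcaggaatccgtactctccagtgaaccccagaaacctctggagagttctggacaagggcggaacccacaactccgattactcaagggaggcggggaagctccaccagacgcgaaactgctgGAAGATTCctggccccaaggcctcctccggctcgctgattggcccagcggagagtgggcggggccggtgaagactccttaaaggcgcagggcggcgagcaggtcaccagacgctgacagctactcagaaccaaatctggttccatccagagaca
Hsph1, chr5:149636266-149636565, minus strand: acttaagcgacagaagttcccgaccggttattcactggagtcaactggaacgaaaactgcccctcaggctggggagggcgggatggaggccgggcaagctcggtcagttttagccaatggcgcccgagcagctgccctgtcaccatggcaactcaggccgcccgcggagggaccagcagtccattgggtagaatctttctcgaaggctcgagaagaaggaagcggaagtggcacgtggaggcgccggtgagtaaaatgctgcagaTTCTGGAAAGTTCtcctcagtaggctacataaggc
Hspe1, chr1:55087898-55088197, plus strand: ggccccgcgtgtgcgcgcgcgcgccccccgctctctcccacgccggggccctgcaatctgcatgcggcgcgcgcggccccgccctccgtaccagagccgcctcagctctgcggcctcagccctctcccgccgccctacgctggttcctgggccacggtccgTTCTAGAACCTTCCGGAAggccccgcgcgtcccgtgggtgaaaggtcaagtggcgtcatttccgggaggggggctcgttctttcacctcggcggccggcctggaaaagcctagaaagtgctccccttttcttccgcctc
Gclm, chr3:122245307-122245606, plus strand: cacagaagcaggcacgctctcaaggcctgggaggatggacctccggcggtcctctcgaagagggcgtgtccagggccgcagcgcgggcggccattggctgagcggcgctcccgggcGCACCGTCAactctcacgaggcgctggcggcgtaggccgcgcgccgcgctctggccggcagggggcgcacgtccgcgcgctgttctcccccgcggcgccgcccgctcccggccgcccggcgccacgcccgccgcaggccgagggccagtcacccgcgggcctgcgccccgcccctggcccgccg
Slc7a11, chr3:50443564-50443863, minus strand: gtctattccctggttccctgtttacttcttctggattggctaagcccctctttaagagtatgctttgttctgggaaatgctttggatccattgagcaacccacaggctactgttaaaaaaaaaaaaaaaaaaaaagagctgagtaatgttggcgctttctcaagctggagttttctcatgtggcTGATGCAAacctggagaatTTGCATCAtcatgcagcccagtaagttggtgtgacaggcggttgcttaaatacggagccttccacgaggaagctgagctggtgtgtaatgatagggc
Atf3, chr1:191183284-191183583, minus strand: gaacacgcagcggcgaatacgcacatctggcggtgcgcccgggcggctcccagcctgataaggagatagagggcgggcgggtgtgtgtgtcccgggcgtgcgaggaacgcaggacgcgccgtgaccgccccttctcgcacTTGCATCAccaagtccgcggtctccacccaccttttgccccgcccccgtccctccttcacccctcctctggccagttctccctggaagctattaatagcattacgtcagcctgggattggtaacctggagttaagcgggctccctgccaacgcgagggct

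The Hspa1b window matched that of Hspa1a at 296 of 300 positions, and the Hspe1 window shared 285 bases with that of Hspd1, which lies on the opposite strand. Shares are of genes that have a window, and a gene counts when any of its windows holds the motif. The 3-unit heat shock element was found in 0.662% of all 27025 genes in the table. It was in 0.543% of tested protein-coding genes and 2.48% of all protein-coding genes that rose. Its 2-unit form, added after the data were seen, was in 17%, 14.6% and 15.5% of these 3 sets. Among heat shock, J-domain and HSP90 partner genes called higher, 17 had a window. The 3-unit element was in 3 of these 17 genes, Hspd1, Hspe1 and Hsph1. The 2-unit form was in 11 of them, among these Hspa1a, Hspa1b, Hspb1, Bag3 and Dnaja1. TGACNNNGC was in 14% of all genes, 16.7% of tested protein-coding genes and 24.2% of all protein-coding genes that rose. It was in 6 of the 17 called glutathione, thioredoxin and iron genes with a window (Abcc4, Gclm, Pgd, Prdx1, Srxn1 and Txnrd1). Of the 17 called chaperone genes with a window, 4 held it (Dnaja2, Dnajb1, Hsph1 and Ptges3). TGATGNAA was in 4.51%, 3.09% and 4.97% of the same sets, in Atf3 and Trib3 among the 5 called integrated stress response genes, and at 2 places in Slc7a11. The 2-unit form can lie inside the 3-unit form. A match describes these letters in this window and is not a site, and a window without one says nothing of the factor. Hsp90aa1, Hsp90ab1, Hspa8, Hmox1 and Gclc had no window in the table.

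The response was one of rises. Of 16955 genes, 286 rose (1.69%) and 17 fell (0.100%), and 1804 genes had an unadjusted p under 0.05. All 303 called genes had groups that did not overlap, a state met by 9.86% of tested genes above and 6.41% below the vehicle libraries. The median log2 fold change of all genes was -0.0048. Of the 286 gene IDs that rose, 198 were protein-coding, with a median log2 fold change of 0.55. Of these 198, 45 rose by at least 2-fold and 17 by at least 4-fold, while the falls ran from -0.56 to -0.24 and none of the 17 reached 2-fold. A further 69 of the risen IDs were small noncoding RNAs, described below. The last gene called, Ube2b, had an adjusted p of 0.0499 and a log2 fold change of 0.26, and the first not called, Mrc1, had 0.0503 and -0.25.

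**Figure D1:**
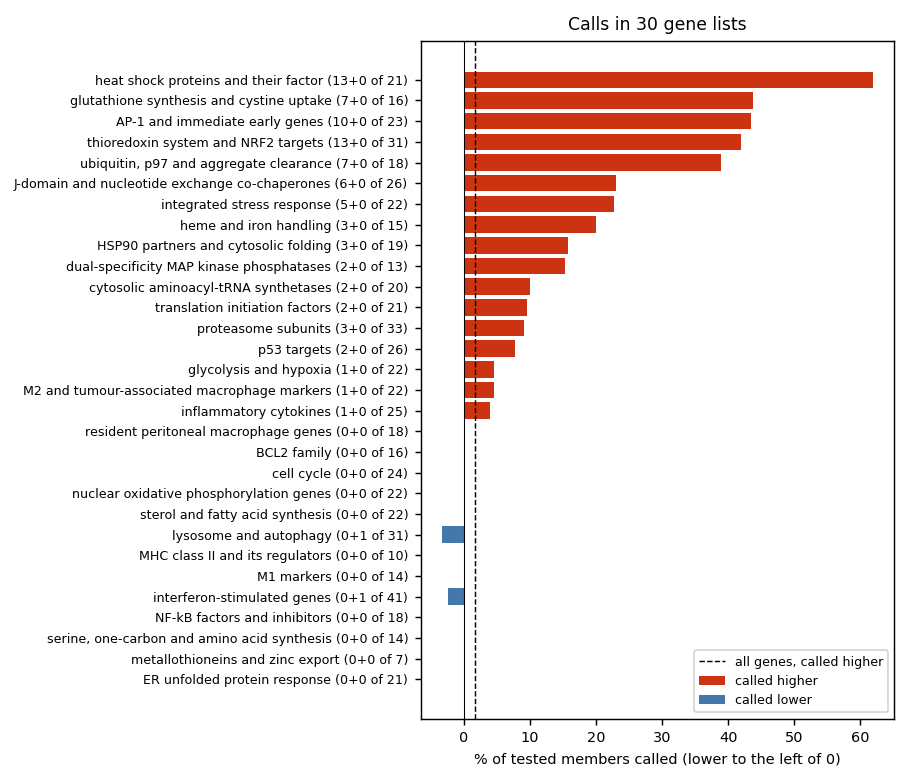
Percent of tested members called higher (red) or lower (blue, left of 0) in each of 30 gene lists, with the numbers called and tested beside each name and the share of all genes called higher as a dashed line. Heat shock proteins lead with 13 of 21 members, and 13 lists have no member called higher.

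Among called genes with a mean log2 CPM of 3 or more, the largest rises were those of Hspa1a and Hspa1b, cytosolic chaperones of the HSP70 class. Some called genes below that level had fitted rises as large or larger, on few counts. Hspa1a (ENSMUSG00000091971; chromosome 17, 34969190 to 34972156, minus strand), the stress-inducible HSP70, was at 2.58, 2.61 and 2.22 CPM in the vehicle libraries and 759.7, 741 and 713 CPM with AP-3-84, a 299-fold ratio of means (edgeR log2 fold change 8.22 ± 0.20 SE, adjusted p 3.73e-10). Its neighbour Hspa1b (chromosome 17, 34956436 to 34959238, minus strand), which encodes nearly the same protein, went from 2.4, 1.92 and 1.95 CPM to 349, 364 and 324 CPM (edgeR log2 fold change 7.37 ± 0.15 SE, adjusted p 5.55e-14). In both genes every vehicle library was under 3 CPM and every AP-3-84 library at 324 CPM or more. The transcripts of the pair share sequence, with 65.7% of the 30-base stretches of Hspa1a found in other genes, so the split of reads between them is uncertain. The related Hspa1l, chosen after its values were seen, went from 0.539, 0.296 and 0.108 CPM to 9.06, 7.25 and 8.86 CPM (edgeR log2 fold change 4.73 ± 0.46 SE, adjusted p 7.31e-06), and shares 14.9% of its stretches with Hspa1a. Gm20481, which overlaps Hspa1a on the opposite strand, had 0 counts in all 6 libraries.

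Other chaperone classes rose less far. Hspb1 (chromosome 5, 135887919 to 135889563, plus strand), a small heat shock protein that holds unfolded proteins, was at 71.2, 69.5 and 79.6 CPM in the vehicle libraries and 1679.7, 982 and 1073 CPM with AP-3-84 (edgeR log2 fold change 4.08 ± 0.25 SE, adjusted p 2.22e-05). AP-3-84 replicate 1 was the highest, and the lowest treated library was still more than 10 times the highest vehicle library. Hsph1, a nucleotide exchange factor for HSP70, went from 59.5, 64.7 and 62.7 CPM to 314, 247 and 256 CPM (edgeR log2 fold change 2.13 ± 0.09 SE, adjusted p 1.92e-10). Hsp90aa1, the inducible cytosolic HSP90, went from 654, 671 and 626 CPM to 2598, 2176 and 2314 CPM (edgeR log2 fold change 1.86 ± 0.07 SE, adjusted p 3.96e-11). Hspa8, the housekeeping HSC70, rose by less than 2-fold and was at 799, 804 and 758 CPM in the vehicle libraries and 1421, 1217 and 1201 CPM with AP-3-84 (edgeR log2 fold change 0.70 ± 0.06 SE, adjusted p 5.09e-06). Of the transcript stretches of Hspb1, Hsp90aa1 and Hspa8, 52.5%, 51.7% and 43.8% also occur in other genes, mainly pseudogenes.

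In all, 13 of 21 heat shock list members rose (61.9%), none fell by edgeR or DESeq2 or at an unadjusted p under 0.05, and the median of the list was 0.62 against -0.0048 for all genes. The remaining called members were Hspd1 and Hspe1, the mitochondrial chaperonin pair, Hsp90ab1, Hspa9, Hspb8 and Hspa4l, and the smallest of the 13 rises was 0.37. Hsf1 itself stood at 5.57, 6.21 and 7.92 CPM in the vehicle libraries and 5.6, 5.68 and 5.67 CPM with AP-3-84 (edgeR log2 fold change -0.22 ± 0.22 SE, adjusted p 0.798), with overlapping groups. With 1 ascites library left out, 11 or 12 of the 21 were called.

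**Figure D2:**
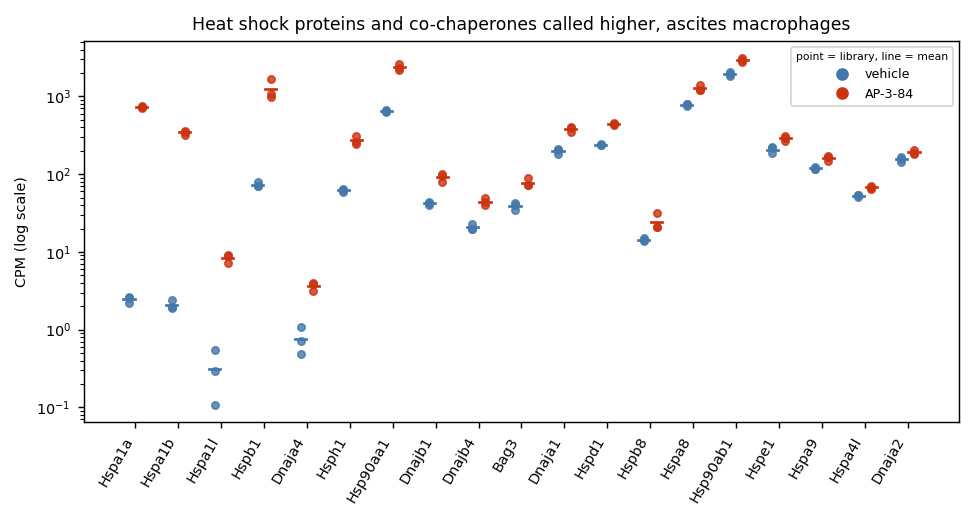
Levels in CPM on a log axis of the 13 heat shock and 6 co-chaperone genes called higher, in 3 vehicle (blue) and 3 AP-3-84 (red) libraries, each point 1 library and each line a mean. In all 19 genes the groups do not overlap, and Hspa1a and Hspa1b are below 3 CPM in vehicle.

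Co-chaperones, which load or unload HSP70 and HSP90, rose in part. Of 26 J-domain and nucleotide exchange genes 6 rose (median of the list 0.11). Dnajb1, the main stress-inducible HSP40, was at 40.1, 44.5 and 42.2 CPM in the vehicle libraries and 99.8, 79.4 and 95.7 CPM with AP-3-84 (edgeR log2 fold change 1.12 ± 0.13 SE, adjusted p 9.02e-05). Bag3, which links HSP70 to autophagy, went from 40.3, 42 and 34.4 CPM to 88.7, 73.1 and 71.8 CPM (edgeR log2 fold change 1.00 ± 0.10 SE, adjusted p 6.57e-06), Dnajb4 rose by 1.09 and Dnaja1 by 0.92 on the log2 scale. Of 19 HSP90 partners 3 rose: Ptges3 (p23), 0.35, Ahsa1, which activates the HSP90 ATPase, 0.41, and St13, which bridges HSP70 and HSP90, 0.41. The Ahsa1 call was lost without vehicle replicate 2 or AP-3-84 replicate 1 and the St13 call without vehicle replicate 1 or AP-3-84 replicate 1, and the count for the partners was 5 without AP-3-84 replicate 2.

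Genes of protein disposal rose by small amounts. Of 18 genes of ubiquitin, p97 and aggregate clearance 7 rose, with log2 fold changes from 0.26 to 0.88. Sqstm1, the autophagy receptor p62, was at 383, 379 and 375 CPM in the vehicle libraries and 801, 623 and 668 CPM with AP-3-84 (edgeR log2 fold change 0.88 ± 0.09 SE, adjusted p 7.71e-06), and the lowest treated library was well above the vehicle libraries. Zfand5 and Zfand2a, which bind ubiquitin and the proteasome, rose by 0.44 and 0.50, and Gabarapl1, of the autophagosome membrane, by 0.54. Of 33 proteasome subunits only Psmd1 (0.37), Psmd3 (0.45) and Psmd7 (0.25) were called, all lid or base subunits of the regulatory particle. Between 1 and 3 of the 33 were called when 1 library was left out, with 1 call without vehicle replicate 1, vehicle replicate 2 or AP-3-84 replicate 1. Of 21 genes of the unfolded protein response of the endoplasmic reticulum 0 were called by edgeR or DESeq2 and 1 had an unadjusted p under 0.05, and their median was 0.09.

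Part of the glutathione and thioredoxin genes rose, with smaller steps than Hspa1a, Hspb1 or Hsph1. Of 16 glutathione genes 7 rose, from 0.41 to 1.14. Gclm and Gclc, the modifier and catalytic subunits of the enzyme that limits glutathione synthesis, were led by Gclm at 142, 142 and 139.9 CPM in the vehicle libraries and 333, 299 and 299.7 CPM with AP-3-84 (edgeR log2 fold change 1.14 ± 0.06 SE, adjusted p 3.38e-09). Gclc went from 20.5, 20.9 and 19.3 CPM to 39.7, 39.4 and 36.7 CPM (edgeR log2 fold change 0.93 ± 0.09 SE, adjusted p 9.97e-06). Slc7a11, the cystine importer, was at 30.7, 36.3 and 37.1 CPM in the vehicle libraries and 81.6, 67.2 and 68.1 CPM with AP-3-84 (edgeR log2 fold change 1.06 ± 0.12 SE, adjusted p 2.4e-05). Gss, which joins the last amino acid of glutathione, rose by 0.96, and Gsr, Gstp1 and Gstm1 completed the 7. In Gclm, Gclc and Slc7a11, the lowest treated library was above the highest vehicle library by more than the range of the vehicle libraries.

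Of 31 thioredoxin system and NRF2 target genes 13 rose, from 0.30 to 1.03. Srxn1, which repairs over-oxidized peroxiredoxins, was at 133, 135 and 135 CPM in the vehicle libraries and 296, 248 and 246 CPM with AP-3-84 (edgeR log2 fold change 0.97 ± 0.07 SE, adjusted p 2.04e-07). Txnrd1, thioredoxin reductase, went from 193, 186 and 177 CPM to 381, 307 and 305 CPM (edgeR log2 fold change 0.84 ± 0.08 SE, adjusted p 5.09e-06). Cat, catalase, rose by 0.79, and Abcc1, which exports glutathione conjugates, by 0.68. The others called were Esd, Pgd, Prdx1, Prdx6, Taldo1, Cbr3, Osgin1, Nqo1 and Abcc4. Nfe2l2, which encodes NRF2, stood at 363, 364 and 367 CPM in the vehicle libraries and 377, 336 and 342 CPM with AP-3-84 (edgeR log2 fold change -0.051 ± 0.06 SE, adjusted p 0.836), and its groups overlapped. Of 15 heme and iron genes 3 rose: Hmox1, which breaks down heme, at 29.2, 32.3 and 33.9 CPM in the vehicle libraries and 124, 80.5 and 92 CPM with AP-3-84 (edgeR log2 fold change 1.63 ± 0.13 SE, adjusted p 4.16e-06), Slc40a1, the iron exporter ferroportin, from 4.61, 4.19 and 4.34 CPM to 13.5, 11.5 and 11.9 CPM (edgeR log2 fold change 1.49 ± 0.15 SE, adjusted p 9.57e-06), and Blvrb, a biliverdin reductase, by 0.42. Of 7 metallothionein and zinc export genes 0 were called by edgeR or DESeq2, and 1 had an unadjusted p under 0.05.

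The integrated stress response had 5 of 22 members called higher. Ppp1r15a, the phosphatase subunit that ends the response, was at 11.6, 13.9 and 14 CPM in the vehicle libraries and 41.6, 33.1 and 36 CPM with AP-3-84 (edgeR log2 fold change 1.49 ± 0.11 SE, adjusted p 5.24e-07). Atf3 rose by 0.81, the secreted factor Gdf15 by 1.08, the pseudokinase Trib3 by 1.09 and Atf4 itself by 0.44. The Trib3 call was lost without vehicle replicate 1, vehicle replicate 2 or AP-3-84 replicate 1. Ddit3, which encodes CHOP, stood at 62.2, 87.9 and 89.8 CPM in the vehicle libraries and 127, 107 and 115 CPM with AP-3-84 (edgeR log2 fold change 0.54 ± 0.13 SE, adjusted p 0.0582) and was not called, though its groups did not overlap, and DESeq2 called it. Genes downstream in amino acid supply did not pass the test: of 14 serine and one-carbon genes 0 were called by edgeR or DESeq2 and 1 had an unadjusted p under 0.05. Mthfd2, a mitochondrial one-carbon enzyme, stood at 76.9, 74.8 and 77.2 CPM in the vehicle libraries and 88.4, 84.8 and 79.6 CPM with AP-3-84 (edgeR log2 fold change 0.14 ± 0.09 SE, adjusted p 0.621). Of 20 aminoacyl-tRNA synthetases Eprs (0.28) and Sars (0.47) rose, and of 21 initiation factors Eif5 (0.33) and Eif2s2 (0.30). These calls, other than that of Eif5, were lost when any of several libraries was left out: AP-3-84 replicate 1, vehicle replicate 2 or vehicle replicate 3 for all of Eprs, Sars and Eif2s2, vehicle replicate 1 for Sars and Eif2s2, and AP-3-84 replicate 3 for Eprs and Eif2s2.

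Immediate early genes, which encode factors made within minutes of a stimulus, gave the highest median of the 30 lists, 0.65. Of 23 tested, 10 rose and 23 had a positive sign. Egr1 was at 17.4, 20.2 and 25.4 CPM in the vehicle libraries and 101, 76.9 and 80.3 CPM with AP-3-84 (edgeR log2 fold change 2.03 ± 0.16 SE, adjusted p 5.16e-06). Jun, a subunit of AP-1, went from 102, 115 and 104 CPM to 323, 264 and 274 CPM (edgeR log2 fold change 1.42 ± 0.08 SE, adjusted p 1.43e-08), while Fos, chosen after its values were seen, was at 26.2, 33.5 and 26.4 CPM in the vehicle libraries and 47.9, 34.4 and 28.2 CPM with AP-3-84 (edgeR log2 fold change 0.36 ± 0.15 SE, adjusted p 0.4) and was not called. Gadd45b, which binds stress kinases, went from 11.2, 11.6 and 10.5 CPM to 23.1, 26.4 and 26.7 CPM (edgeR log2 fold change 1.19 ± 0.09 SE, adjusted p 4.75e-07), and Gadd45g rose by 1.11. The other 6 were Ier5l, Ier3, Klf6, Klf4, Ier5 and Fosb. Of 13 dual-specificity phosphatases, which switch off MAP kinases, Dusp1 went from 18.8, 16.9 and 19 CPM to 48.8, 50.8 and 47.7 CPM (edgeR log2 fold change 1.43 ± 0.13 SE, adjusted p 5.09e-06) and Dusp2 rose by 1.07, a call lost without any 1 of 4 libraries.

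**Figure D3:**
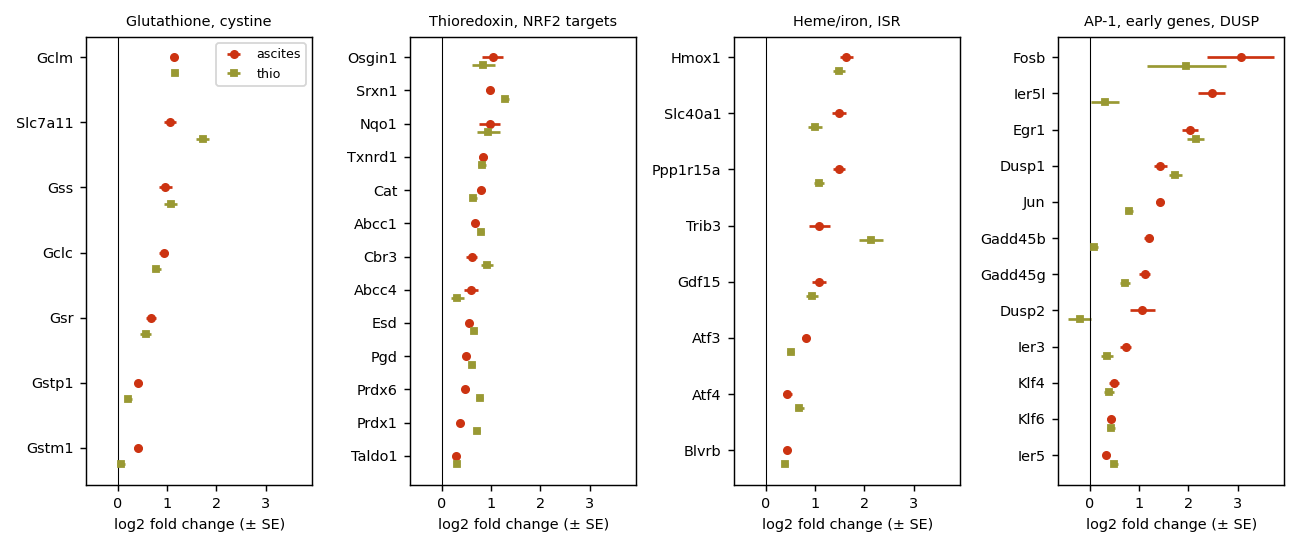
Log2 fold changes with SE of the called members of 6 lists, in ascites (red) and thio (olive) macrophages, grouped as glutathione, thioredoxin and NRF2 targets, heme, iron and integrated stress response (ISR), and early genes with phosphatases. Ascites values run from about 0.30 for Taldo1 to 3.06 for Fosb, and Gadd45b, Jun and Ier5l are the plotted genes whose 2 responses differed by test.

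Few inflammatory and polarization genes of macrophages were called, and in lists this short the counts lie near the shares of all genes (1.69% higher, 0.100% lower). Fitted log2 fold changes ran from -1.02 to 0.96 in the cytokine list and from -0.85 to 0.86 in the M2 list. A gene without a call is not shown to be unchanged. Of 18 NF-kB genes, 14 M1 markers and 10 MHC class II genes 0 were called by edgeR, against 1, 0 and 0 by DESeq2 and 2, 1 and 0 at an unadjusted p under 0.05. Of 25 cytokines only Cxcl2, a neutrophil chemokine, rose, from 38.5, 33.1 and 28.4 CPM to 55, 61.1 and 51.1 CPM (edgeR log2 fold change 0.74 ± 0.17 SE, adjusted p 0.0352), a call lost without vehicle replicates 2 or 3 or AP-3-84 replicates 1 or 2. Tnf stood at 12.6, 10.3 and 12.6 CPM in the vehicle libraries and 15, 13.2 and 14.3 CPM with AP-3-84 (edgeR log2 fold change 0.26 ± 0.17 SE, adjusted p 0.658) and Il1b at 18.2, 12.3 and 12.4 CPM in the vehicle libraries and 14.2, 14 and 16.3 CPM with AP-3-84 (edgeR log2 fold change 0.053 ± 0.29 SE, adjusted p 0.975). Nos2 had 6 counts over the vehicle and 14 over the AP-3-84 libraries and was not tested. Of 22 M2 and tumour-associated markers Tgfb1 rose, from 21.7, 21.9 and 22.1 CPM to 46.5, 40.5 and 32.2 CPM (edgeR log2 fold change 0.86 ± 0.12 SE, adjusted p 0.000195), in all 3 treated libraries. Arg1 stood at 479, 536 and 589 CPM in the vehicle libraries and 605, 570.4 and 612 CPM with AP-3-84 (edgeR log2 fold change 0.16 ± 0.09 SE, adjusted p 0.574), and Mrc1, the mannose receptor, at 143, 146 and 147 CPM in the vehicle libraries and 128, 123 and 116 CPM with AP-3-84 (edgeR log2 fold change -0.25 ± 0.06 SE, adjusted p 0.0503), just above the threshold.

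Interferon-stimulated genes had the lowest median of the 30 lists, -0.14. Of 41 tested, 1 fell (12 at an unadjusted p under 0.05), 36 had a negative sign, and 16 had all AP-3-84 libraries below all vehicle libraries, against 6.41% of all genes. The one called, Slfn4, a Schlafen gene, was at 309, 338 and 297 CPM in the vehicle libraries and 219.8, 245 and 207 CPM with AP-3-84 (edgeR log2 fold change -0.49 ± 0.08 SE, adjusted p 0.00221), 28.8% lower. DESeq2 called 4 of the 41 lower, and edgeR 2 without vehicle replicate 3, AP-3-84 replicate 1 or AP-3-84 replicate 3. Adgre1, which encodes the F4/80 antigen of the sort, was at 234, 241 and 243 CPM in the vehicle libraries and 218, 213 and 218 CPM with AP-3-84 (edgeR log2 fold change -0.15 ± 0.06 SE, adjusted p 0.343), Csf1r at 2175, 2111 and 2184 CPM in the vehicle libraries and 2389.6, 1949 and 2037 CPM with AP-3-84 (edgeR log2 fold change -0.021 ± 0.09 SE, adjusted p 0.96) and H2-Aa at 523, 512 and 624 CPM in the vehicle libraries and 789, 509.9 and 513 CPM with AP-3-84 (edgeR log2 fold change 0.13 ± 0.16 SE, adjusted p 0.843), and none was called.

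Of 26 p53 targets Mdm2 (0.44), which degrades p53, and Plk2 (0.49) rose. Trp53 stood at 14.6, 18.6 and 18.9 CPM in the vehicle libraries and 19.9, 13.4 and 18.2 CPM with AP-3-84 (edgeR log2 fold change -0.02 ± 0.16 SE, adjusted p 0.987), and Cdkn1a, the p21 inhibitor of the cell cycle, at 551, 536 and 529.6 CPM in the vehicle libraries and 789, 537 and 539 CPM with AP-3-84 (edgeR log2 fold change 0.21 ± 0.13 SE, adjusted p 0.651). The value of AP-3-84 replicate 1 lay apart from the other 5 libraries in Cdkn1a. Of 22 glycolysis and hypoxia genes only Adm, a vasodilator peptide, was called, at no more than 1.76 CPM in any library, and its call was lost when any 1 library was left out. Of 31 lysosome genes Neu1, a sialidase, fell by 16.7% (edgeR log2 fold change -0.26 ± 0.06 SE, adjusted p 0.0488). Sterol synthesis (22 genes), oxidative phosphorylation (22), the cell cycle (24), the BCL2 family (16) and resident peritoneal macrophage genes (18) had 0 calls by edgeR and by DESeq2, with 2, 3, 1, 3 and 2 genes at an unadjusted p under 0.05.

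Falls were few and shallow. After Slfn4 and Neu1, the named falls were Galk2 (-0.56), Hpgds, which makes prostaglandin D2 (-0.40), Dennd1a (-0.40), the paraspeckle RNA Neat1 (-0.34), the lysosomal amino acid carrier Slc36a1 (-0.33), Ms4a6c (-0.31), Fcgr1 (-0.31), Tmcc3 (-0.31) and the adenylate cyclase Adcy7 (-0.30). Hpgds was at 56.9, 58.1 and 60.9 CPM in the vehicle libraries and 44.8, 47 and 41.4 CPM with AP-3-84, 24.3% lower (edgeR log2 fold change -0.40 ± 0.08 SE, adjusted p 0.00615). Fcgr1 was at 335, 348 and 346 CPM in the vehicle libraries and 248, 301 and 281 CPM with AP-3-84 (edgeR log2 fold change -0.31 ± 0.08 SE, adjusted p 0.0468). The summed macrophage markers, made up mostly of Lyz2, were lower with AP-3-84 as well. Of the 12 markers only Fcgr1 was called, and Lyz2 was not. The part of macrophage content in these falls was not tested. The 6 other called falls were Fabp5, Ptafr, Sdc3, Tor3a, Cerk and Agap1, chosen after their values were seen. Galk2, Fcgr1, Tmcc3, Dennd1a, Adcy7 and Neu1 each lost the call in 5 or 6 of the 6 omissions of 1 ascites library. Ms4a6c lost it without vehicle replicate 1 or 2, Slc36a1 without vehicle replicate 3 or AP-3-84 replicate 3, and Neat1 without vehicle replicate 3, AP-3-84 replicate 1 or AP-3-84 replicate 3.

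Of the 198 protein-coding genes that rose, 117 were in none of the 30 lists. Among those with a mean log2 CPM of 3 or more, the largest rises were those of Tmprss11a, a serine protease gene that went from 8.63, 8.92 and 8.25 CPM to 273, 189.7 and 148 CPM (edgeR log2 fold change 4.56 ± 0.24 SE, adjusted p 5.09e-06), and Tmem245, a membrane protein gene that went from 82.4, 79.1 and 71.8 CPM to 1086, 822 and 643 CPM (edgeR log2 fold change 3.45 ± 0.18 SE, adjusted p 5.16e-06). The longest run of A in their annotated transcripts was 20 bases in Tmem245 and 11 in Tmprss11a. Whether the library kit, which primes on poly(A), started reads at such runs was not tested. In both genes, replicate 1 was the highest and replicate 3 the lowest of the treated libraries, and all 3 were above every vehicle library. Among other such genes, chosen after their values were seen, Ptgr1, a prostaglandin reductase, rose by 1.19, Ifrd1 by 1.08, Ednrb, the endothelin receptor, by 1.19, Hbegf, an EGF family growth factor, by 0.88, and Procr, the protein C receptor, by 0.85. Kctd19 had 0 counts in vehicle and 66 with AP-3-84, at least 25-fold higher when 3 counts over the vehicle group are taken as the floor. Gm42826, an unclassified transcript, went from 2.28, 2.76 and 2.71 CPM to 38.1, 31.1 and 33.5 CPM (edgeR log2 fold change 3.72 ± 0.20 SE, adjusted p 4.49e-09). Gm26917, known here only by its annotated type of long noncoding RNA, went from 31.9, 32.9 and 45.7 CPM to 186, 142 and 106 CPM (edgeR log2 fold change 1.98 ± 0.21 SE, adjusted p 0.000399).

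Small noncoding RNA genes rose as a set that was picked out after its values were seen. These are ribosomal, spliceosomal, nucleolar and other short RNAs, most of which lack a poly(A) tail, while the library kit primes on poly(A). Of 204 such IDs tested 69 rose (33.8%) and 0 fell, against 1.51% of 13097 protein-coding genes. The IDs are not independent. Many copies have the same counts, and the 69 came down to 23 distinct rows of counts, so all 286 rises came down to 240. A pair printed from the GENCODE M21 transcripts (GRCm38) stands for kinds that rose: a Y RNA and a nucleolar RNA inside a chaperone gene.

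Rny3, chr6:47781624-47781725, plus strand: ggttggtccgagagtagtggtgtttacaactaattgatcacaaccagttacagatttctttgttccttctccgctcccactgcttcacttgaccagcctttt
Snord14d, chr9:40803995-40804080, plus strand: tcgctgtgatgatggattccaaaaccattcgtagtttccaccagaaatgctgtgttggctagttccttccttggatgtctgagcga

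By type, 39 of 41 ribosomal RNA IDs rose, but in only 3 distinct rows of counts. Of these, Gm24312 had 2 counts over the vehicle libraries and 101 with AP-3-84, and n-R5s112 had 0 and 94. Of 51 small nuclear RNAs 17 rose (8 rows), and of 26 of the miscellaneous type 6 (5 rows). Another 3 of 77 small nucleolar RNAs, 2 of 7 scaRNAs and 2 of 2 ribozymes rose, each in its own row. Rn7sk, the 7SK RNA that holds the elongation factor P-TEFb inactive, was at 41.6, 45.7 and 50.8 CPM in the vehicle libraries and 608, 444 and 476 CPM with AP-3-84 (edgeR log2 fold change 3.47 ± 0.15 SE, adjusted p 1.55e-07). Rn7s1 and Rn7s2, copies of the RNA of the signal recognition particle, had identical counts and went from 24.1, 42.9 and 48.2 CPM to 269, 222 and 224 CPM (edgeR log2 fold change 2.63 ± 0.33 SE, adjusted p 0.00325). The vault RNA Vaultrc5 went from 1.74, 2.12 and 0.976 CPM to 41, 33.1 and 39.1 CPM (edgeR log2 fold change 4.54 ± 0.22 SE, adjusted p 1.5e-09). Rny1 and Rny3, which bind the Ro protein, rose by 3.24 and 2.59, and Rmrp and Rpph1, the RNAs of RNase MRP and RNase P, by 4.21 and 3.34.

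The 3 small nucleolar RNAs that rose, Snord14c, Snord14d and Snord14e, all lie inside Hspa8 on its strand. Snord14d was at 0.359, 0.493 and 0.814 CPM in the vehicle libraries and 8.56, 7.31 and 8.54 CPM with AP-3-84 (edgeR log2 fold change 3.85 ± 0.47 SE, adjusted p 5.91e-05), and all its 30-base stretches also occur in annotated Hspa8 transcripts. The summed counts of all IDs of these types were 0.326% to 0.417% of the library total in vehicle and 0.400% to 0.545% with AP-3-84, and these ranges overlapped. When 1 ascites library was left out, 66 to 70 IDs in 20 to 24 rows were called.

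**Figure D4:**
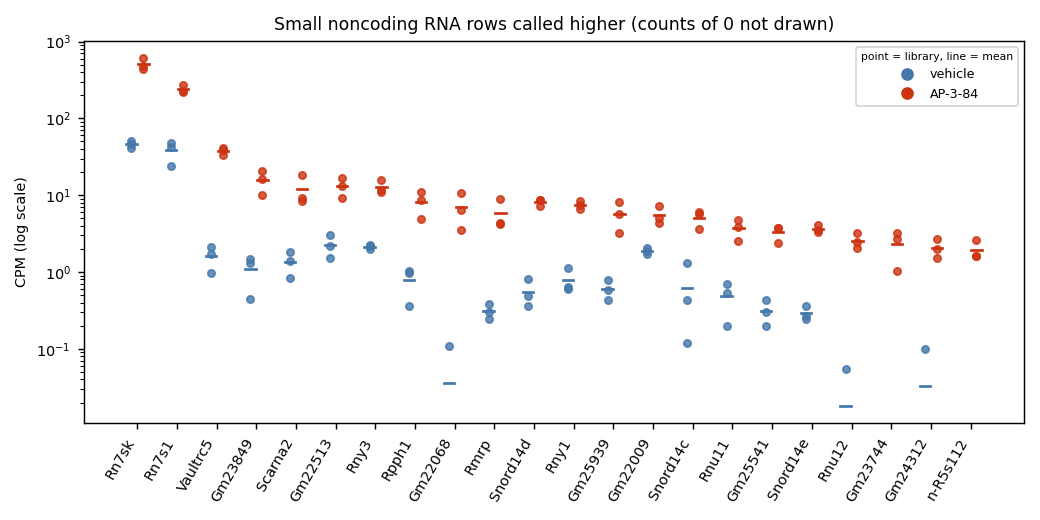
Levels in CPM on a log axis of the distinct rows of small noncoding RNA counts called higher, all but 1 of the 23, in 3 vehicle (blue) and 3 AP-3-84 (red) libraries, lines marking means and counts of 0 left out. Rn7sk is the most abundant at 444 to 608 CPM with AP-3-84, and the 2 groups do not overlap in any row drawn.

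Ascites and thio macrophages were compared to see where the ascites response differs. They differ in mouse genotype, tumour and elicitation at once, and these cannot be told apart. Of the 286 ascites rises 187 were also called higher in thio cells, 65.4% of the ascites and 44% of the 425 thio rises. Of the 17 falls 11 were also called lower, 64.7% of the ascites and 3.57% of the 308 thio falls. The test of the difference itself called 20 genes (0.118%), 13 with the larger value in ascites and 7 in thio cells.

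Among those 13 were chaperones and early genes. Hspa1a changed by 8.22 in ascites and 6.52 in thio cells (difference 1.69 ± 0.26 SE, edgeR adjusted p 0.0389), and Hsph1 by 2.13 in ascites and 1.45 in thio cells (difference 0.68 ± 0.12 SE, edgeR adjusted p 0.0389). Gadd45b changed by 1.19 in ascites and 0.086 in thio cells (difference 1.11 ± 0.12 SE, edgeR adjusted p 0.000628), where the thio value was not called. Jun changed by 1.42 in ascites and 0.79 in thio cells (difference 0.63 ± 0.12 SE, edgeR adjusted p 0.0389), and Rn7sk by 3.47 in ascites and 1.73 in thio cells (difference 1.73 ± 0.20 SE, edgeR adjusted p 0.00603). Hspa1b, in contrast, changed by 7.37 in ascites and 7.07 in thio cells (difference 0.30 ± 0.27 SE, edgeR adjusted p 0.809), which is no call. Since 64.1% of the 30-base stretches of Hspa1a occur in Hspa1b, the split of reads between the pair is uncertain here too.

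Genes with the smaller value in ascites included Mthfd2, which changed by 0.14 in ascites and 1.65 in thio cells (difference -1.504 ± 0.13 SE, edgeR adjusted p 4.22e-05). Ifrd1 changed by 1.08 in ascites and 2.12 in thio cells (difference -1.04 ± 0.12 SE, edgeR adjusted p 0.000628), and Rgs1, which dampens G protein signals, by 0.34 in ascites and 1.11 in thio cells (difference -0.78 ± 0.10 SE, edgeR adjusted p 0.00261). For the antioxidant genes no difference was called: Gclm changed by 1.14 in ascites and 1.16 in thio cells (difference -0.023 ± 0.08 SE, edgeR adjusted p 0.966) and Hmox1 by 1.63 in ascites and 1.49 in thio cells (difference 0.15 ± 0.18 SE, edgeR adjusted p 0.867). Larger differences without a call were those of Slc7a11, 1.06 in ascites and 1.72 in thio cells (difference -0.67 ± 0.17 SE, edgeR adjusted p 0.299), and Srxn1. Srxn1 changed by 0.97 in ascites and 1.29 in thio cells (difference -0.32 ± 0.10 SE, edgeR adjusted p 0.434). A p that misses the threshold does not show that responses are equal. The number of differing genes was 7 to 26 when 1 library was left out.

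**Figure D5:**
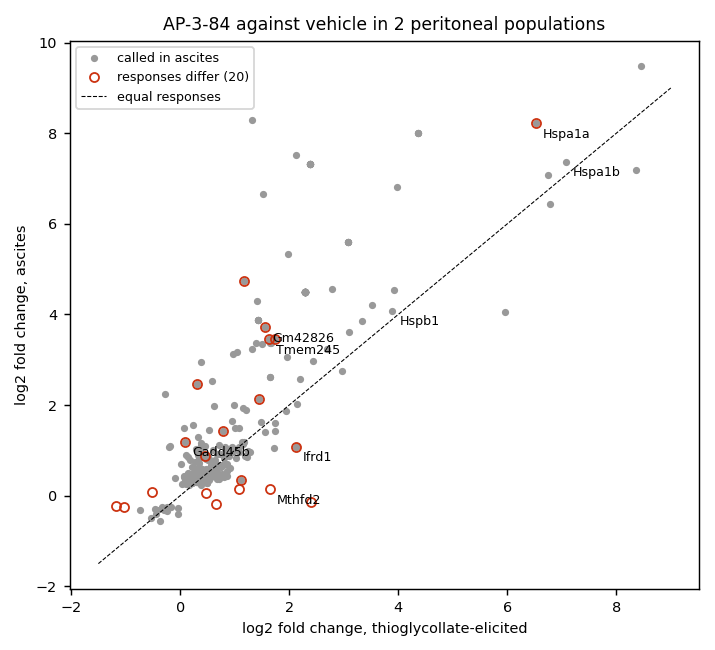
Log2 fold change in ascites (vertical) against thio macrophages (horizontal) for genes called in ascites (grey), with the 20 genes whose responses differed circled in red and equal responses as a dashed line. Hspa1a lies above the line at 8.22 against 6.52, and Mthfd2 far to the right at 0.14 against 1.65.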

How the data were processed

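RNA of 48 libraries was measured by 3′ mRNA sequencing (QuantSeq FWD, per the labels' protocols). The deposited table holds raw whole-number counts per Ensembl gene ID, 51789 IDs, by its values. The submitters' processing notes name RSEM, Bowtie2 and DESeq2. Their role, the genome build, the annotation and any rounding were not given in the sources used here. The 36 bone marrow-derived libraries were not used here. Symbols, types and coordinates came from GENCODE M21 (GRCm38), which held 51596 of the IDs.

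Counts were tested with edgeR 4.0.16 in R 4.3.3 (robust quasi-likelihood, filterByExpr by group, TMM scaling, 1 mean per group) in one fit of the 12 peritoneal libraries, checked on simulated data. CPM were computed from the counts. Each SE comes from the quasi-likelihood fit and includes the spread between libraries. The floor of 3 counts covers counting error only. Replicates differed by more than counting noise (chi-square per gene 4.83 to 18.9). Alternatives were other scalings, no filter, DESeq2 1.42.0, ascites libraries only, a 2-fold minimum, a replicate block and leaving out each library. Genes named are the 15 largest rises and 10 largest falls among calls with a mean log2 CPM of 3 or more and groups that do not overlap, the 4 lowest p per list, counts of 5 or fewer, 4 interaction genes and a fixed set. The members and the 30 lists were chosen with earlier results of these data known. The values of 1 small RNA row are not reported here.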

Additional observations from a re-analysis of the deposited data

Results flagged for a closer look

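The 20 genes below had a response to AP-3-84 that differed between ascites and thio macrophages in edgeR's test of the difference at an adjusted p under 0.05. Values are the ascites minus the thio log2 fold change. The response was larger in ascites for the chaperone genes Hspa1l (3.57), Hspa1a (1.69), Hsph1 (0.68) and Hspd1 (0.42), and for the early genes Ier5l (2.17), Gadd45b (1.11) and Jun (0.63). It was also larger for the noncoding Gm42826 (2.17) and Rn7sk (1.73), and for Tmem245 (1.82). Hspa1l was low in vehicle and shares 14.9% of its 30-base stretches with Hspa1a, which shares 64.1% of its own with Hspa1b. The split of reads among these genes is uncertain, and for Hspa1b no difference was called (0.30, edgeR adjusted p 0.809). Ccr2, a monocyte chemokine receptor (0.95), F13a1 (0.78) and Rapgef6 (0.60) had positive differences, being called lower in thio cells and not called in ascites. The value was smaller in ascites for Vasn (-2.53), Mthfd2 (-1.504), Ifrd1 (-1.04), the arginine importer Slc7a1 (-0.92), the matrix metalloproteinases Mmp13 (-0.85) and Mmp12 (-0.42), and Rgs1 (-0.78). The 2 populations differ in genotype, tumour and elicitation at once, which cannot be told apart here.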

How the results depend on the processing

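The number of calls was 303. It was 519 with no filter on low counts, 203 with ascites libraries only and 130 with a 2-fold minimum. With 1 ascites library left out it was 196 to 312, lowest without vehicle replicate 2. For rises (286) these values were 437, 196, 130 and 190 to 280. Calls lost with ascites libraries only included those of Atf4, Hpgds, Zfand2a and Sars. Falls (17) were the least stable count: 53 under scaling by total counts, 82 with no filter, 45 with DESeq2, 7 with ascites libraries only, 0 with a 2-fold minimum, 40 among protein-coding genes only (added after seeing the data), and 6 to 32 with 1 library left out (6 without vehicle replicate 1 or 2, 9 without vehicle replicate 3, 27 without AP-3-84 replicate 1 and 32 without AP-3-84 replicate 3). Scaling by total counts moved the median of all genes to -0.054 and the share of calls that were higher from 94.4% to 81.8%, and no filter gave 84.2%. Genes whose responses differed (20) numbered 155 with no filter, 55 with DESeq2 and 7 to 26 with 1 library left out. Same-numbered libraries did not deviate together (r -0.327, 0.0064 and -0.248). With 3 libraries a group these values cannot decide whether the numbers pair the libraries. With a replicate block the counts were 174 calls, 173 higher, 1 lower and 5 differences. Counting identical rows once, added after seeing the data, gave 245 calls. Of the 71 named genes called, 44 kept the call in all 12 alternatives run per gene, 21 lost it in at least 1 omission of a library, and none changed sign. Signs turned for 5 genes that were not called: Cdkn1a (-0.0248 without AP-3-84 replicate 1, and up to 0.3 over the omissions), Trp53 (0.0302, 0.0454 and 0.132 without vehicle replicate 2, vehicle replicate 3 and AP-3-84 replicate 2, and down to -0.17), Il1b (-0.0479, -0.0388 and -0.0226 without vehicle replicates 2 and 3 and AP-3-84 replicate 3, and up to 0.261), H2-Aa (-0.138 without AP-3-84 replicate 1, and up to 0.235) and Csf1r (0.0369 and 0.00775 without AP-3-84 replicates 2 and 3, and down to -0.138). The cause was not tested. With 3 libraries a group, low genes such as Adm and Rnu12 rest on few counts.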
